A study of Mus musculus with 6 samples.

Results

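Leukocyte homing and retention receptors are described here by 8 genes of the 32285 in the count tables: the chemokine receptors Ccr9, Ccr4, Ccr6, Ccr2, Cxcr6 and Cxcr3, the integrin subunit Itgae (CD103) and the sphingosine 1-phosphate receptor S1pr1.
The genes were taken by symbol, and all 8 were measured.
Cells of the digested lung of 6 mice were sequenced, 1 library a mouse.
All 6 mice were male human CTLA4-knockin (hCTLA4) animals, 12 weeks old, which carry the extracellular part of human CTLA4 that ipilimumab recognizes, and all received bleomycin, a DNA-damaging drug that scars the lung, at 1.25 U/kg in 2 doses 2 weeks apart.
From day 21 after the second bleomycin dose, 3 mice received IgG1 and 3 received ipilimumab, a human antibody that blocks CTLA4, at 5 mg/kg, repeated over 4.5 weeks.
No uninjured mice are among the samples, so levels describe lungs after bleomycin.

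Chemokine receptors are G protein-coupled receptors that draw leukocytes along gradients of secreted chemokines, and each tissue and subset uses its own combination.
CCR9 and its ligand CCL25 serve the thymus and small intestine, CCR4 answers CCL17 and CCL22, CCR6 answers CCL20, and CCR2 brings monocytes out of the bone marrow toward CCL2.
CXCR3 answers the interferon-induced CXCL9 and CXCL10, and CXCR6 answers CXCL16 and keeps memory T cells near the airways.
S1PR1 draws lymphocytes out of tissue into lymph and blood, while CD103 pairs with the integrin beta 7 chain and holds cells to E-cadherin on epithelium.

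Cells were named by marker genes, with the 8 receptors left out of clustering, and T-like cells were divided by UMIs (unique molecular identifiers, each 1 captured transcript).
The 4957 T-like cells gave 813 CD8 cells with Ccl5, 1142 CD8 cells without it, 877 CD4 cells with Icos, 543 CD4 cells without it, 147 regulatory T cells (Treg, with Foxp3) and 355 unconventional T cells, gated on Zbtb16, Il23r and 1 other gene.
Other cells with neither or both of Cd4 and Cd8 entered none of these gates. Cycling cells were named as a class of their own and entered none either. A cluster of 30 cells led by Tnfsf8, Cd40lg and Gata3, with Il4, was named ILC2-like. Its cells with Cd3 UMIs entered no gate.
The other immune gates include 1460 NK-like, 8620 B-like, 3228 alveolar macrophage-like and 465 classical monocyte-like cells, but only 84 cDC1-like, 37 ILC2-like and 29 pDC-like cells.
All 8 T cell markers had UMIs in each T cell gate.
Libraries held 37666042 to 48612412 UMIs and gave 3270 to 4350 cells, with 0 to 11 called barcodes shared by any 2 libraries.
Ipilimumab replicate 1 stood apart, with 78.9% of its UMIs in called barcodes against 92.4% to 93.1% in the others, and comparisons between treatments were repeated without each library.
Levels are CPM, UMIs of a gene over all UMIs of the gate in 1 mouse on the usual CPM scale, and are compared here between gates for 1 gene, not between genes.

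The receptor genes lie on 5 chromosomes in mm10 (GENCODE positions, whole gene): Ccr9 at chr9:123678439-123784330, Cxcr6 at chr9:123806475-123811760, Ccr2 at chr9:124101950-124113557, Ccr4 at chr9:114490316-114504916, Ccr6 at chr17:8236043-8257141, Itgae at chr11:73090583-73147446, S1pr1 at chr3:115710433-115715072 and Cxcr3 at chrX:101731535-101734269.
Ccr9, Cxcr6 and Ccr2 are neighbours on chromosome 9 and went different ways in the CD8 gates described further on, where Ccr9 was lower and the other two higher in cells with Ccl5.

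The 250 bases before the RefSeq start sites (GRCm38.p6) of Ccr9, Cxcr6 and Cxcr3 are shown, since these receptors moved in opposite directions between the CD8 gates; RefSeq promoters were matched for 6 of the 8 genes, all but Itgae and S1pr1. Capitals mark CACCC (bound by KLF factors), ACCACA (RUNX) and TCAAAG (TCF and LEF factors) on either strand.
Ccr9, chr9:123766961-123767210, plus strand: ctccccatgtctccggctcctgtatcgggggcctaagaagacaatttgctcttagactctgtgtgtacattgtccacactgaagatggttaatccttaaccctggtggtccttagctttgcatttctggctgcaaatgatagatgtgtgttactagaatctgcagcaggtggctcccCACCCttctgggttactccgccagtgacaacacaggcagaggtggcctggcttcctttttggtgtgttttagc
Cxcr6, chr9:123806227-123806476, plus strand: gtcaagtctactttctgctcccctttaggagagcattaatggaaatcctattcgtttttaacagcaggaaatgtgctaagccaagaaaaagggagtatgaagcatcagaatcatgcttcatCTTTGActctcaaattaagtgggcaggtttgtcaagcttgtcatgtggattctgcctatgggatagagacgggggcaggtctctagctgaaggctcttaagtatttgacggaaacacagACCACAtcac
Cxcr3, chrX:101734148-101734397, minus strand: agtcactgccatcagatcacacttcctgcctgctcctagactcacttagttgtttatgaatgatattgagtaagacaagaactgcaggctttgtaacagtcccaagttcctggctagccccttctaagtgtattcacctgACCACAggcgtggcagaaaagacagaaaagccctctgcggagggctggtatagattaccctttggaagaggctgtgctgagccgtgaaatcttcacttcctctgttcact
Ccr9 held 1 CACCC, Cxcr6 held 1 ACCACA and 1 TCAAAG, and Cxcr3 held 1 ACCACA. Among all 27025 promoters of the same length, 51.3% held CACCC, 14.2% ACCACA and 14.1% TCAAAG on either strand, and the T-box letters TCACACC (3.31% of promoters) were in none of the 3. The promoter of Ccr2, which was also higher in CD8 cells with Ccl5 and is not shown, held none of these letters.

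S1pr1, the egress receptor, was highest among immune cells in CD4 T cells.
It measured 564 ± 71.04 CPM (SD, n = 6 mice) in CD4 cells without Icos and 552 ± 41.6 CPM in those with Icos, and these neighbours overlapped.
CD8 cells without Ccl5 (383 ± 31.1 CPM), Treg (333 ± 70.7 CPM) and CD8 cells with Ccl5 (276 ± 17.9 CPM) came next, each overlapping its neighbour.
B-like cells (218 ± 15.6 CPM), unconventional T cells (127 ± 7.08 CPM) and NK-like cells (30.4 ± 7.47 CPM) were lower, and each of these 3 ranges lay below the one before.
Endothelial-like cells, which use S1PR1 to keep the vessel wall tight, measured 646 ± 129 CPM (SD, n = 6 mice) and overlapped the CD4 gates.
In the ILC2-like cells 0 UMIs were counted in 37 cells, which allows a share of cells with a UMI of up to 8.11% (3 counts, counting error only).
Ambient RNA, counted in barcodes too small to be cells, held 101 to 237 CPM of S1pr1, which spans the unconventional T level and nearly all of the B-like range (197 to 243 CPM), with the NK level below it. The part of ambient RNA in the levels of these 3 gates was not tested.

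Among gates with at least 10 cells in at least 3 mice, Ccr2 was highest in classical monocyte-like, cDC-like and interstitial macrophage-like cells. The unconventional, NK and Treg gates led among lymphocytes.
Classical monocyte-like cells held 593 ± 49.6 CPM (SD, n = 6 mice), and their lowest mouse lay above every mouse of the other gates with at least 10 cells.
Behind them came cDC2-like (301 ± 75.8 CPM, 5 mice), cDC1-like (254 ± 49.6 CPM, 4 mice), interstitial macrophage-like (203 ± 84.4 CPM, 5 mice) and unconventional T cells (192 ± 53.5 CPM), each overlapping the next.
NK-like cells measured 155 ± 25.03 CPM and Treg 131 ± 73.6 CPM, while alveolar macrophage-like cells (11.2 ± 2.23 CPM) stayed below the 23.9 to 46.1 CPM of ambient RNA.
Nonclassical monocyte-like cells held 36.9 ± 18.3 CPM. Neutrophil-like (0.609 ± 0.676 CPM) and B-like cells (0.252 ± 0.225 CPM) were near 0.

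Cxcr6 was highest in ILC2-like cells, where 215 UMIs in 37 cells made 809 CPM over all mice together, but no more than 13 of these cells came from 1 mouse.
Unconventional T cells held 340.4 ± 70.8 CPM (SD, n = 6 mice), with each mouse (242, 290.4, 317, 366, 392 and 435 CPM) above every mouse of the other T cell gates.
A Cxcr6 UMI was found in 74.4% of unconventional T cells and 12.5% of CD4 cells with Icos, against 0.753% of NK-like and 0.557% of B-like cells.
After each cell was thinned to 1000 UMIs these shares were 28.98%, 4.22%, 0.0693% and 0.0935%, so the T cell gates stayed above the NK-like and B-like cells.
Interstitial macrophage-like cells had 0 UMIs in 139 cells.
Ambient RNA held 4.73 to 18.9 CPM of Cxcr6, and the CD8 Ccl5- level (8.32 ± 4.31 CPM) lay within that range.

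Cxcr3, the receptor of type 1 effector cells, lay in the unconventional T (59.5 ± 10.3 CPM), Treg (57.8 ± 29.3 CPM), CD4 Icos+ (46.01 ± 16.6 CPM) and CD8 Ccl5+ (37.8 ± 8.68 CPM) gates, which overlapped one another in that order.
Treg and type 2 helper cells use Ccr4, but the latter had no gate of their own. Ccr4 was highest in Treg (61.4 ± 44.7 CPM), unconventional T (48.7 ± 15.4 CPM) and CD4 Icos+ cells (33.7 ± 11.1 CPM), again with overlap.
It was near 0 in CD8 cells with Ccl5 (0.717 ± 0.724 CPM), and 0 UMIs were counted in 465 classical and 508 nonclassical monocyte-like cells.
The Treg values rest on 16 to 38 cells a mouse, and IgG1 replicate 1 had 0 UMIs of Ccr4, Itgae and Cxcr3 in its 16 Treg.
Ambient RNA held 5.05 to 26.8 CPM of Cxcr3 and 0 to 8.83 CPM of Ccr4.

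Ccr6 was highest in B-like cells, and few other cells held it.
B-like cells held 63.9 ± 5.93 CPM (SD, n = 6 mice), from 58.1 to 74.1 CPM, above the unconventional T gate (30.6 ± 13.6 CPM) and the Treg gate (21.4 ± 23.96 CPM).
No Ccr6 UMI was counted in 813 CD8 Ccl5+, 1142 CD8 Ccl5-, 543 CD4 Icos- or 1460 NK-like cells, which allows shares of up to 0.369%, 0.263%, 0.552% and 0.205%.

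Ccr9 marked pDC-like cells, a class known to use it, with 780 UMIs in 29 cells (1817 CPM over all mice together), although no mouse had 10 of them.
Among gates with enough cells, unconventional T (33.7 ± 15.3 CPM) and CD8 Ccl5- cells (33.6 ± 9.16 CPM) led the T cells and overlapped.
Plasma cell-like cells varied most, with 26.9, 378 and 5.18 CPM in the 3 mice with at least 10 cells.
Itgae was highest in cDC1-like cells, the dendritic cells that carry CD103 in the lung (215 ± 14.04 CPM, 4 mice), whose range lay above Treg (44.3 ± 39.4 CPM), unconventional T (41.7 ± 9.14 CPM) and CD8 Ccl5- cells (34.5 ± 8.98 CPM).

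**Figure D1:**
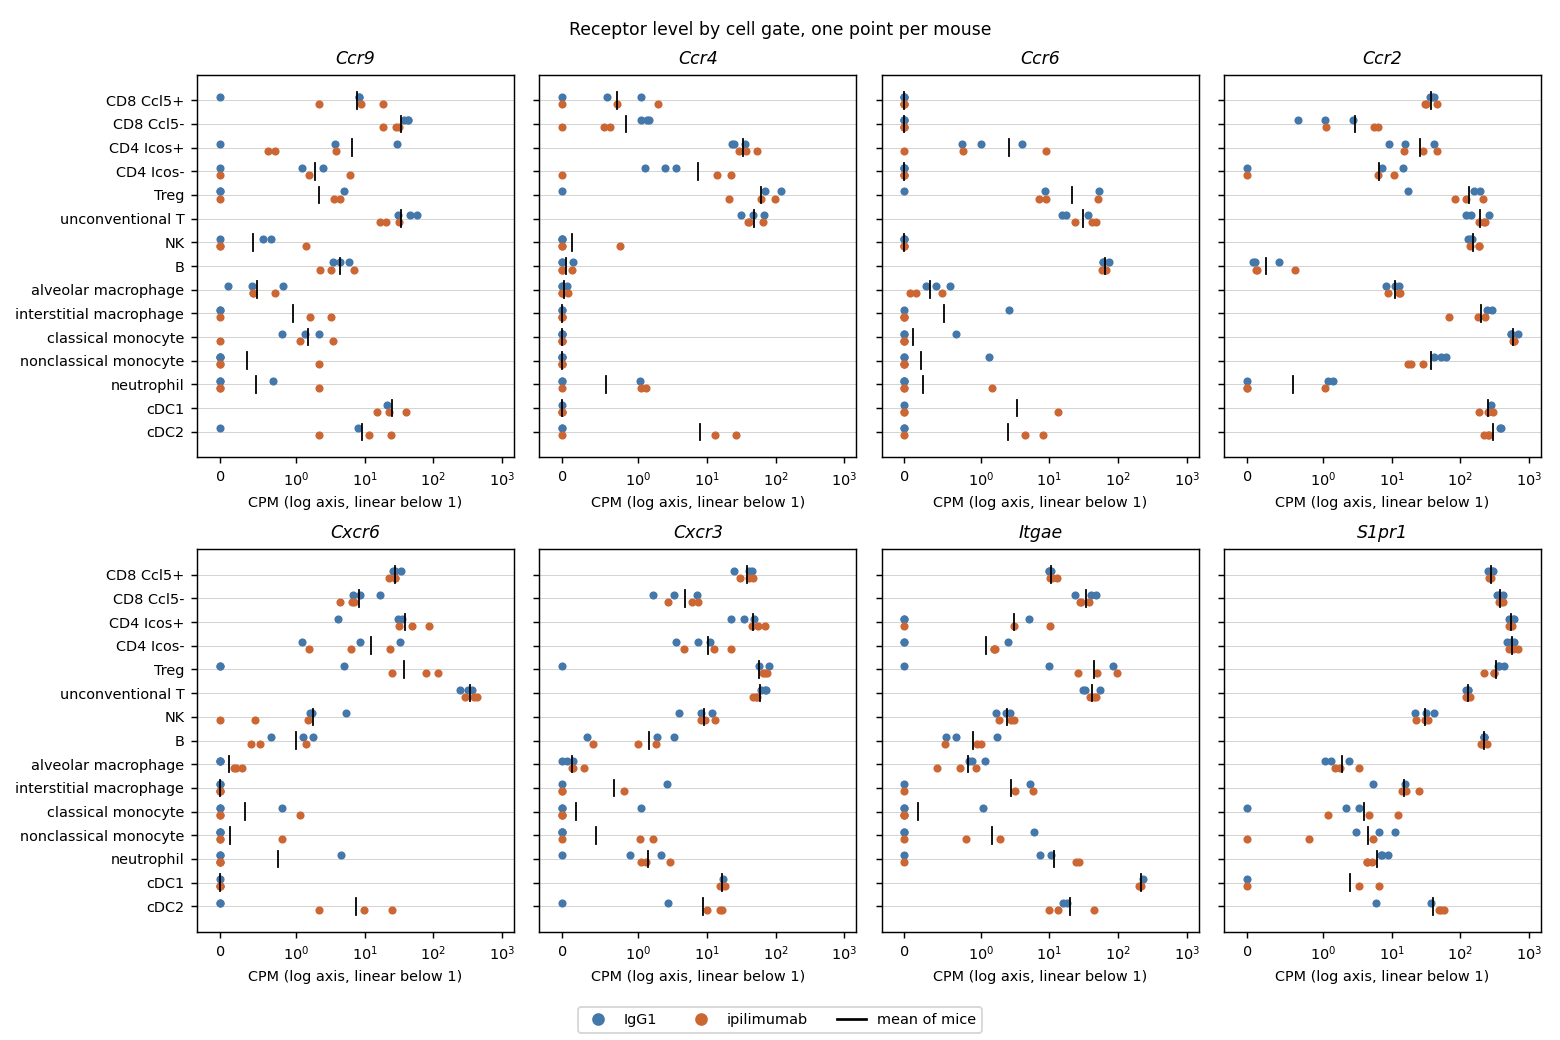
Level of each receptor (CPM, log axis that is linear below 1) in 15 cell gates, with a point per mouse with at least 10 cells, coloured by treatment, and a line at the mean of those mice. Ccr2 peaks in classical monocyte-like cells, Ccr6 in B-like cells, Itgae in cDC1-like cells, Cxcr6 in unconventional T cells and S1pr1 in the CD4 gates, and the colours lie together in most rows.

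The genes whose levels followed each receptor most closely were taken over the 16 immune gates with at least 3 usable mice, by Pearson's r of log2(mean CPM + 10), among 11282 genes.
For S1pr1 they were Dgka (r = 0.977), Crbn (r = 0.9701) and Ddb2 (r = 0.969), for Ccr2 Eif4e3 (r = 0.863), S100a4 (r = 0.862) and Emp3 (r = 0.861), and for Ccr4 Bmp7 (r = 0.971), Ccr8 (r = 0.968) and Tox2 (r = 0.953).
For Cxcr6 they were Podnl1 (r = 0.977), Atp8a2 (r = 0.961) and Hlf (r = 0.9604), for Cxcr3 Zdhhc2 (r = 0.93004), Acsbg1 (r = 0.919) and Pdcd1 (r = 0.916), and for Ccr9 Brip1 (r = 0.873), Krt10 (r = 0.864) and Lztfl1 (r = 0.8499).
For Ccr6 they were Edaradd (r = 0.894), Gm15411 (r = 0.869) and Angptl1 (r = 0.824), and for Itgae Sema4f (r = 0.895), 4931406G06Rik (r = 0.887) and Itga3 (r = 0.859).
These are descriptions over gates that share mice and libraries. The pDC-like and ILC2-like gates, which held the highest Ccr9 and Cxcr6, were not among the 16. Of the gates used, plasma cell-like cells had the highest mean of Ccr9, at 137 ± 209 CPM (3 mice, from 5.18 to 378 CPM).

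CD8 T cells with and without Ccl5, a chemokine of effector and memory cells, differed in each of the 6 receptors tested.
Of these 6, 3 were higher and 3 lower in cells with Ccl5, where 21.0% of all genes tested were called (adjusted p under 0.05 and log2 fold beyond 0.3).
Ccr2 was 30.1, 31.3, 36.6, 39.03, 41.5 and 45.2 CPM in cells with Ccl5 of the 6 mice and 0.6698, 1.07, 1.09, 2.69, 5.45 and 6.24 CPM without, in ascending order, and the ranges did not overlap (log2 fold 3.66 ± 0.29 (SE), adjusted p = 5.3e-11 by edgeR).
Ambient RNA held 23.9 to 46.1 CPM of Ccr2, with the levels with Ccl5 inside that range and those without below it. Its part was not tested. Cxcr3 rose from 4.72 ± 2.47 to 37.8 ± 8.68 CPM (log2 fold 2.87 ± 0.22 (SE), adjusted p = 2.32e-11 by edgeR).
Cxcr6 rose from 8.32 ± 4.31 to 27.5 ± 3.596 CPM, in 6 of 6 mice (log2 fold 1.63).
Ccr9 was 0, 2.15, 8.18, 8.397, 8.91 and 18.5 CPM with Ccl5 and 18.5, 28.9, 31.8, 37.5, 42.1 and 42.5 CPM without, which was lower with Ccl5 in 6 of 6 mice, although the ranges met at their ends (log2 fold -2.12 ± 0.27 (SE), adjusted p = 4.26e-07 by edgeR).
Itgae, often read as a residency marker, was also lower with Ccl5, at 10.7 ± 1.096 against 34.5 ± 8.98 CPM (log2 fold -1.70 ± 0.17 (SE), adjusted p = 5.89e-09 by edgeR).
S1pr1 was lower by less, at 276 ± 17.9 against 383 ± 31.1 CPM (log2 fold -0.54 ± 0.062 (SE), adjusted p = 7.01e-08 by edgeR).

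Of 14 further chemokine receptors, 5 were tested in this pair, and 3 rose and 1 fell.
The fractalkine receptor Cx3cr1 rose by 3.28 on the log2 scale.
Ccr7, which takes naive cells into lymph nodes, fell from 596 ± 66.7 to 293 ± 45.5 CPM (log2 fold -1.10, adjusted p = 1.33e-12 by edgeR).
Of 9 integrins and selectins of homing, 7 rose and 1 fell: Itga1, a collagen-binding chain, rose by 4.75 and Itgb1 by 2.61 on the log2 scale.
Of 7 tested egress and retention genes, 4 rose and 1 fell: Prdm1 rose by 2.33, and Klf2, a factor that drives S1pr1, fell by 0.35 on the log2 scale.
Median log2 folds were 1.31 for the chemokine receptors, 1.45 for the integrins and selectins and 0.47 for the egress and retention genes, against -0.011 for all genes tested.
S1pr5 was at 17.04 ± 13.1 CPM with Ccl5 and had 0 UMIs in 1142 cells without, which allows up to 0.263 CPM.
None of the ligands of the receptors or of the sphingosine 1-phosphate supply genes was called in this pair, with 1 of each list tested.

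CD4 T cells with Icos, a costimulatory receptor of activated cells, held more of 4 of the 5 receptors tested than CD4 cells without it, where 8.9% of all genes were called.
Ccr4 was 23.1, 24.99, 29.1, 35.3, 36.4 and 53.6 CPM with Icos and 0, 1.24, 2.46, 3.58, 14.1 and 22.3 CPM without in the 6 mice, and was higher in 6 of 6 (log2 fold 2.21 ± 0.37 (SE), adjusted p = 0.000237 by edgeR).
Cxcr3 rose from 10.2 ± 6.84 to 46.01 ± 16.6 CPM (log2 fold 2.02 ± 0.27 (SE), adjusted p = 1.42e-05 by edgeR).
Ccr2 and Cxcr6 each rose in 5 of 6 mice, by 1.82 and 1.64 on the log2 scale (adjusted p = 0.00411 and 0.00305 by edgeR), and with DESeq2 neither passed.
With each mouse left out the Ccr2 fold was 1.53 to 2.53, highest without IgG1 replicate 1. That of Ccr4 was 1.93 to 2.99, highest without ipilimumab replicate 2.
S1pr1 did not pass the test (log2 fold -0.11 ± 0.075 (SE), adjusted p = 0.425 by edgeR).
Of the lists, Ccr7 was lower with Icos (log2 fold -0.53, adjusted p = 0.000483 by edgeR), 6 of 8 integrins and selectins were higher and 1 lower, and Klf2, 1 of 5 egress and retention genes tested, was at -0.35 on the log2 scale.
Median log2 folds were -0.059 for the chemokine receptors, 0.45 for the integrins and selectins and 0.039 for the egress and retention genes, against -0.015 for all genes tested.

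Against CD4 cells with Icos, Treg had more Ccr2 and less S1pr1, which were 2 of 5 receptors tested where 10.9% of all genes were called.
Ccr2 was 17.04, 83.6, 119.7, 159.8, 193 and 215 CPM in Treg and 9.05, 15.3, 15.8, 28.4, 41.98 and 45.997 CPM in CD4 Icos+ cells, and within each of the 6 mice Treg were higher (log2 fold 2.33 ± 0.21 (SE), adjusted p = 9.11e-07 by edgeR).
S1pr1 was 333 ± 70.7 against 552 ± 41.6 CPM (log2 fold -0.78 ± 0.11 (SE), adjusted p = 0.000116 by edgeR).
Ccr4, held to be a Treg receptor, was higher in 4 of 6 mice and did not pass (log2 fold 0.80 ± 0.34 (SE), adjusted p = 0.166 by edgeR).
Among the lists, Cxcr4 and Itgb7 were higher in Treg, by 0.60 and 0.53 on the log2 scale, while Itgb1, Itgal and the positioning receptor Gpr183 were lower.
Of the ligands, Cxcl10 was higher in Treg, at 75.6 ± 40.7 against 9.92 ± 5.59 CPM (log2 fold 3.01, adjusted p = 0.000237 by edgeR).
Median log2 folds were 0.70 for the chemokine receptors, 0.060 for the integrins and selectins and -0.051 for the egress and retention genes, against -0.006 for all genes tested.

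Unconventional T cells differed most from CD4 Icos+ cells, with 5 of 8 receptors higher and 1 lower, where 26.6% of all genes were called.
S1pr1 was 119, 121, 125, 129, 131 and 138 CPM in unconventional T cells and 504, 519, 524, 570.1, 587 and 606 CPM in CD4 Icos+ cells, with a wide gap between the ranges (log2 fold -2.19 ± 0.088 (SE), adjusted p = 5.55e-12 by edgeR).
Itgae rose from 3.02 ± 4.03 to 41.7 ± 9.14 CPM (log2 fold 3.66 ± 0.43 (SE), adjusted p = 3.34e-06 by edgeR).
Ccr6, a receptor of type 17 cells, rose from 2.56 ± 3.37 to 30.6 ± 13.6 CPM (log2 fold 3.46 ± 0.41 (SE), adjusted p = 3.11e-06 by edgeR), and the gate was chosen in part on the type 17 gene Il23r.
Cxcr6, Ccr2 and Ccr9 were higher by 3.09, 2.83 and 2.62 on the log2 scale, each in 6 of 6 mice.
With each mouse left out the Ccr9 fold was 2.36 to 3.91, highest without IgG1 replicate 2. Those of Ccr6 and Itgae were 3.12 to 4.35 and 3.38 to 4.58, highest without ipilimumab replicate 3. These highest folds were all called.
The mean levels of Ccr9 and Ccr6 in CD4 Icos+ cells lay within ambient RNA, which held 3.79 to 20.2 and 2.37 to 20.2 CPM. The part of ambient RNA in these levels was not tested.
Ccr4 and Cxcr3 did not pass (adjusted p = 0.113 and 0.388 by edgeR).
Ccr7 (-2.35), Itga4 (-1.34) and Klf2 (-1.69) were lower on the log2 scale, and Itga1 (1.98) and Cd44 (1.44) higher, all called by edgeR.
Of 9 integrins and selectins 6 were higher and 3 lower, and median log2 folds were -0.18 for the chemokine receptors, 0.49 for the integrins and selectins and -0.19 for the egress and retention genes, against 0.004 for all genes tested.

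CD8 Ccl5+ cells were set against CD4 Icos+ cells to compare the antigen-experienced gates of both lineages, where 19.1% of all genes were called.
Of 6 receptors tested, Ccr4 (log2 fold -5.42 ± 0.34 (SE), adjusted p = 1.36e-09 by edgeR) and S1pr1 (log2 fold -1.004 ± 0.069 (SE), adjusted p = 5.43e-09 by edgeR) were lower and Itgae higher (log2 fold 1.84 ± 0.51 (SE), adjusted p = 0.0141 by edgeR) in the CD8 cells.
The Itgae levels were 10.7 ± 1.096 and 3.02 ± 4.03 CPM, within and below the 5.03 to 12.6 CPM of ambient RNA. With each mouse left out the log2 fold was 1.51 to 2.79, highest without ipilimumab replicate 3.
S1pr1 was lower in 6 of 6 mice, at 276 ± 17.9 against 552 ± 41.6 CPM.
Cxcr6, Ccr2 and Cxcr3 did not pass, with folds of -0.46 ± 0.28, 0.56 ± 0.25 and -0.28 ± 0.15 (log2, SE).
Of 5 chemokine receptors tested, 3 were higher in the CD8 cells, among them Cx3cr1 (2.19), and of 9 integrins and selectins 4 were higher and 2 lower.
Median log2 folds were 1.04 for the chemokine receptors, 0.23 for the integrins and selectins and 0.064 for the egress and retention genes, against 0.016 for all genes tested.
The comparisons that use CD4 Icos+ cells share those cells.

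**Figure D2:**
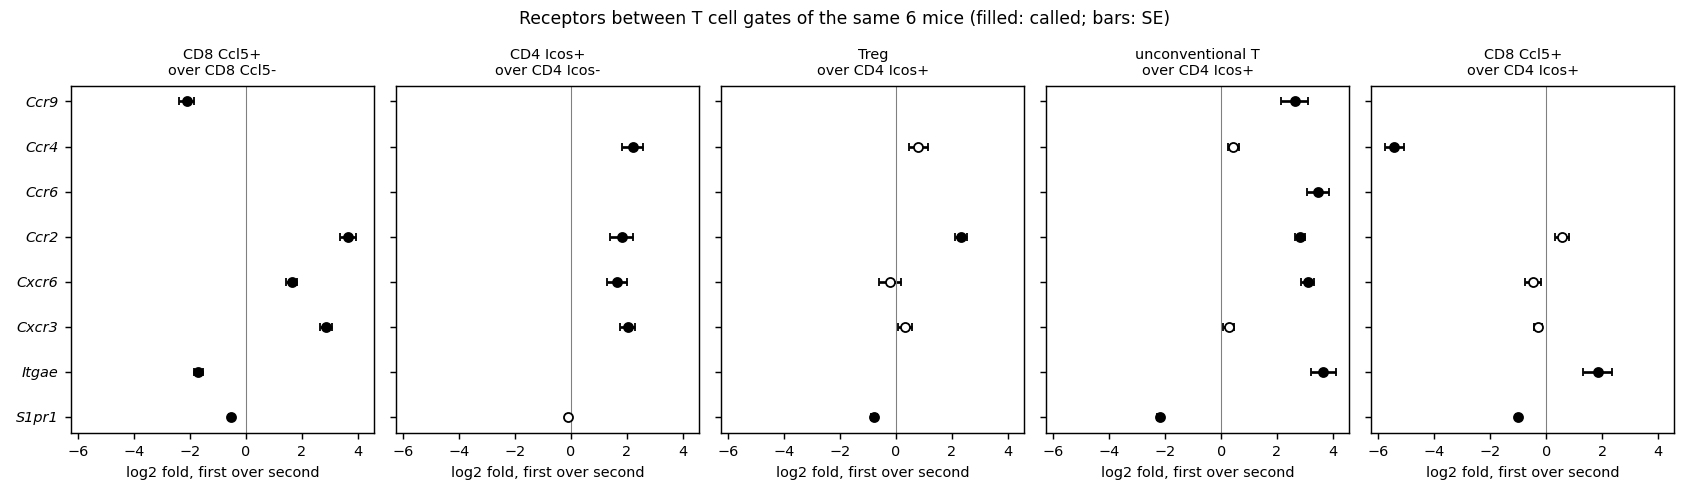
Log2 fold change of each receptor between pairs of T cell gates of the same 6 mice, with bars of 1 SE and filled points for called genes. Ccr2, Cxcr6 and Cxcr3 lie right of 0 and Ccr9 and Itgae left of it in CD8 cells with Ccl5, and S1pr1 lies left of 0 in all 5 pairs, without being called between the CD4 gates.

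Single cells showed which receptors were found together, as counts over all mice and with no test.
In CD4 Icos+ cells, 56 of 110 cells with Cxcr6 also had an S1pr1 UMI (50.9%), against 86.4% of all 877 cells of the gate.
In CD8 Ccl5- cells, 238 of 257 cells with Itgae had an S1pr1 UMI (92.6%), near the 92.1% of the whole gate.
Ccr9 and Itgae were found together in 71 of these cells, which is 31.98% of cells with Ccr9 and 27.6% of cells with Itgae, against 22.5% with Itgae and 19.4% with Ccr9 in the whole gate.
In unconventional T cells, 67 of 69 cells with Itgae had Cxcr6 (97.1%), against 74.4% of the gate, and 6 of 65 cells with Ccr6 had Cxcr3 (9.23%), against 26.8% of the gate.
Cells of more UMIs show more of any gene, and depth was not adjusted for in these counts.

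Between ipilimumab and IgG1, no receptor passed the test in any gate.
The 8 receptors gave 54 tests in 14 gates, and 0 were called by edgeR or by DESeq2, with 11 at an unadjusted p under 0.05. In simulated CD4 Icos+ counts the edgeR test recovered 43% of changes of 1 on the log2 scale, so such changes can go uncalled.
Over all genes and all 15 gates tested, 5.97% had an unadjusted p under 0.05.
The share of all genes called was 0.0119% in CD8 Ccl5+ cells, 0.0319% in CD4 Icos- cells and 0% in each of the other 13 gates.
The called genes were Scgb1a1 in both of these gates, a secretory airway gene that made 412 to 14218 CPM of ambient RNA, and Abcb1b.
Without the filter on low counts, 9 of 112 tests were called: Ccr4, Ccr9, Cxcr6 and Cxcr3 over all T-like cells, Ccr9 and Cxcr6 in CD4 Icos+ cells, Cxcr6 in Treg, and Ccr4 and Cxcr6 in cDC2-like cells.
All genes were then called at 1.57% in T-like cells, 0.85% in CD4 Icos+ cells, 0.86% in Treg and 0.906% in cDC2-like cells.
In cDC2-like cells all 8 T cell markers also had higher averages in the ipilimumab mice, such as Trbc1 at 70.5 against 15.4 CPM on average, and their part in the Ccr4 and Cxcr6 calls was not tested.
Without IgG1 replicate 2, Ccr2 over all T-like cells was called (log2 fold 0.78, adjusted p = 0.0379 by edgeR, with 0.634% of all genes called), against a log2 fold of 0.34 and an adjusted p of 0.704 with all mice.
Without ipilimumab replicate 1 no receptor was called.
In neutrophil-like cells no receptor passed the filter.
The plasma cell-, ILC2-, cDC1-, mature DC- and pDC-like gates had fewer than 2 mice with at least 10 cells in a group and were not tested.

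In the tested gate where each receptor was highest, the groups overlapped for each receptor but Cxcr3. The share of all genes whose groups lie apart is not given, so groups apart are only described here and below. In other gates they were also apart for S1pr1 in Treg (384 ± 44.4 CPM with IgG1 and 281 ± 49.6 CPM with ipilimumab, SD). So were S1pr1 in cDC2-like cells (21.6 ± 22.1 and 52.9 ± 4.07 CPM) and Ccr2 in interstitial macrophage-like cells (267 ± 32.5 and 159 ± 81.9 CPM), each with 2 IgG1 mice. Over all T-like cells Ccr9 and Cxcr3 were apart, and none of these was called.
Ccr2 in classical monocyte-like cells was 683, 545 and 553 CPM in the IgG1 mice and 581, 599 and 599.99 CPM in the ipilimumab mice (log2 fold 0.022 ± 0.13 (SE), unadjusted p = 0.864 and adjusted p = 0.9996 by edgeR).
Ccr6 in B-like cells was 74.1, 60.5 and 59.9 CPM in the IgG1 mice and 67.1, 63.9 and 58.1 CPM in the ipilimumab mice (log2 fold -0.039 ± 0.10 (SE), unadjusted p = 0.712 and adjusted p = 0.945 by edgeR).
S1pr1 in CD4 Icos- cells was 596, 482 and 538 CPM in the IgG1 mice and 682, 576 and 511 CPM in the ipilimumab mice (log2 fold 0.13 ± 0.13 (SE), unadjusted p = 0.347 and adjusted p = 0.886 by edgeR).
Of the 3 receptors that were highest in unconventional T cells, Cxcr3 was 72.1, 70.4 and 61.6 CPM in the IgG1 mice and 53.4, 52.3 and 46.98 CPM in the ipilimumab mice, with each ipilimumab mouse below each IgG1 mouse, and did not pass (log2 fold -0.41 ± 0.22 (SE), unadjusted p = 0.0872 and adjusted p = 0.797 by edgeR).
Cxcr6 was 317, 366 and 242 CPM in the IgG1 mice and 290.4, 392 and 435 CPM in the ipilimumab mice (log2 fold 0.28 ± 0.21 (SE), unadjusted p = 0.189 and adjusted p = 0.862 by edgeR), and Ccr9 is given further on.
In Treg, Ccr4 was 0, 119 and 69.9 CPM in the IgG1 mice and 21.1, 61.6 and 96.7 CPM in the ipilimumab mice, and Itgae was 0, 83.5 and 9.99 CPM in the IgG1 mice and 49.3, 26.4 and 96.7 CPM in the ipilimumab mice, with log2 folds, in that order, of -0.23 ± 0.66 and 0.68 ± 0.74 (SE).
The Itgae fold rested on single mice, at 3.13 without IgG1 replicate 2 and 0.085 without ipilimumab replicate 3, and that of Ccr4 was 0.52 without IgG1 replicate 2.

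The tests at an unadjusted p under 0.05, named here after their values were seen, fall in 2 sets: T cells, and Ccr2 in NK-like and myeloid cells.
In CD4 Icos+ cells, Cxcr6 was 4.02, 34.98 and 30.8 CPM in the IgG1 mice and 32.1, 48.2 and 85.7 CPM in the ipilimumab mice (log2 fold 1.20 ± 0.45 (SE), unadjusted p = 0.0177 and adjusted p = 0.609 by edgeR), and without the filter on low counts its adjusted p was 2.42e-05.
Cxcr3 in the same cells was 22.1, 48.97 and 34.5 CPM in the IgG1 mice and 55.4, 45.1 and 69.9 CPM in the ipilimumab mice (log2 fold 0.67 ± 0.24 (SE), unadjusted p = 0.0162 and adjusted p = 0.596 by edgeR).
The groups overlapped for both, and IgG1 replicate 1 was the lowest mouse for each.
The summed ILC2 markers, of which CD4 and Treg cells share Gata3, Rora and Il1rl1, were 444 to 575 CPM in the IgG1 mice and 598 to 1077 CPM in the ipilimumab mice in this gate, with UMIs of 5 of 6 markers and Il13 at 0, and their part in the Cxcr6 values was not tested.

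In Treg, Cxcr6 was 0, 0 and 4.99 CPM in the IgG1 mice and 24.6, 79.2 and 118 CPM in the ipilimumab mice, from 0, 0 and 1 UMIs against 7, 18 and 39 UMIs.
Each ipilimumab mouse lay above each IgG1 mouse, but the gene did not pass the filter on low counts and had no test within the gate except without that filter, where its adjusted p was 7.81e-07 by edgeR.
The summed ILC2 markers in Treg were 170.4 to 1199 CPM in the IgG1 mice and 1137 to 2536 CPM in the ipilimumab mice, and their part was not tested.
The test of the interaction, whether its treatment fold in Treg differs from that in CD4 Icos+ cells, gave a difference of 4.10 ± 0.94 (log2, SE), unadjusted p = 0.000421 and adjusted p = 1 by edgeR.
None of the 32 interaction tests of the receptors was called, and 8 had an unadjusted p under 0.05, as had 4.88% of all genes tested.
The share of all genes called for interaction was 0.0221% between the CD8 gates, 0.0129% between the CD4 gates and 0% in the other 3 pairs.

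Ccr9 was lower with ipilimumab in CD8 Ccl5- cells without passing, at 42.5, 37.5 and 42.1 CPM in the IgG1 mice and 31.8, 18.5 and 28.9 CPM in the ipilimumab mice (log2 fold -0.61 ± 0.19 (SE), unadjusted p = 0.00477 and adjusted p = 0.6198 by edgeR).
The groups did not overlap, and the 7 markers of pDC-like cells, which held the highest level of Ccr9, summed to 109 to 117 CPM in the IgG1 mice and 99.7 to 122 CPM in the ipilimumab mice.
Of these markers 4 had UMIs in the gate, led by Bst2 with 743, while Siglech, Klk1 and Smim5 were at 0, and their part was not tested.
In unconventional T cells it was 30.9, 45.8 and 57.2 CPM in the IgG1 mice and 31.4, 20.5 and 16.6 CPM in the ipilimumab mice (log2 fold -0.97 ± 0.34 (SE), unadjusted p = 0.0137 and adjusted p = 0.684 by edgeR), and the groups overlapped.
Over all T-like cells, Ccr9 had a log2 fold of -0.69 ± 0.19 (SE), Cxcr3 of 0.49 ± 0.15, Ccr4 of 0.76 ± 0.30 and Cxcr6 of 0.63 ± 0.25, with adjusted p from 0.421 to 0.496 by edgeR.
The makeup of the T-like cells moved with these values: CD8 Ccl5- cells made 25.6 ± 3.05% of them with IgG1 and 20.5 ± 1.39% with ipilimumab, and CD4 Icos+ cells 15.9 ± 1.78% and 19.3 ± 1.12% (SD, n = 3 mice a group).
Its part in the values over all T-like cells, which hold all the T cell gates, was not tested.

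Ccr2 in nonclassical monocyte-like cells, which normally hold little of it, was 62.5, 41.7 and 52.1 CPM in the IgG1 mice and 19.3, 28.4 and 17.2 CPM in the ipilimumab mice (log2 fold -1.19 ± 0.31 (SE), unadjusted p = 0.001198 and adjusted p = 0.353 by edgeR).
The groups did not overlap.
The summed classical monocyte markers in this gate were 129 to 161 CPM in the IgG1 mice and 126 to 177 CPM in the ipilimumab mice, with all 6 markers found, while Ly6c2 alone averaged 20.5 CPM in IgG1 and 2.88 CPM in ipilimumab mice, and their part was not tested.
In cDC2-like cells Ccr2 was 372 and 392 CPM in 2 IgG1 mice, IgG1 replicate 3 being left out with 8 cells, and 261, 255 and 224 CPM in the ipilimumab mice (log2 fold -0.69 ± 0.18 (SE), unadjusted p = 0.00457 and adjusted p = 0.797 by edgeR).
All 8 T cell markers had UMIs in this gate and summed to 279 and 74.2 CPM in these IgG1 mice and 404 to 609.8 CPM in the ipilimumab mice, and their part was not tested. Of the classical monocyte markers, Ly6c2 averaged 149 CPM with IgG1 and 73.9 CPM with ipilimumab, and F13a1 70.3 and 21.5 CPM. Hp was also lower with ipilimumab, while Fn1 (153 and 179 CPM) and Vcan (0 and 16.0 CPM) were higher. Ms4a4c was level (130 and 131 CPM), and the part of these markers was not tested.
In NK-like cells Ccr2 was 138, 149.6 and 131 CPM in the IgG1 mice and 187, 139 and 186 CPM in the ipilimumab mice (log2 fold 0.28 ± 0.13 (SE), unadjusted p = 0.0435 and adjusted p = 0.902 by edgeR), with overlap.

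**Figure D3:**
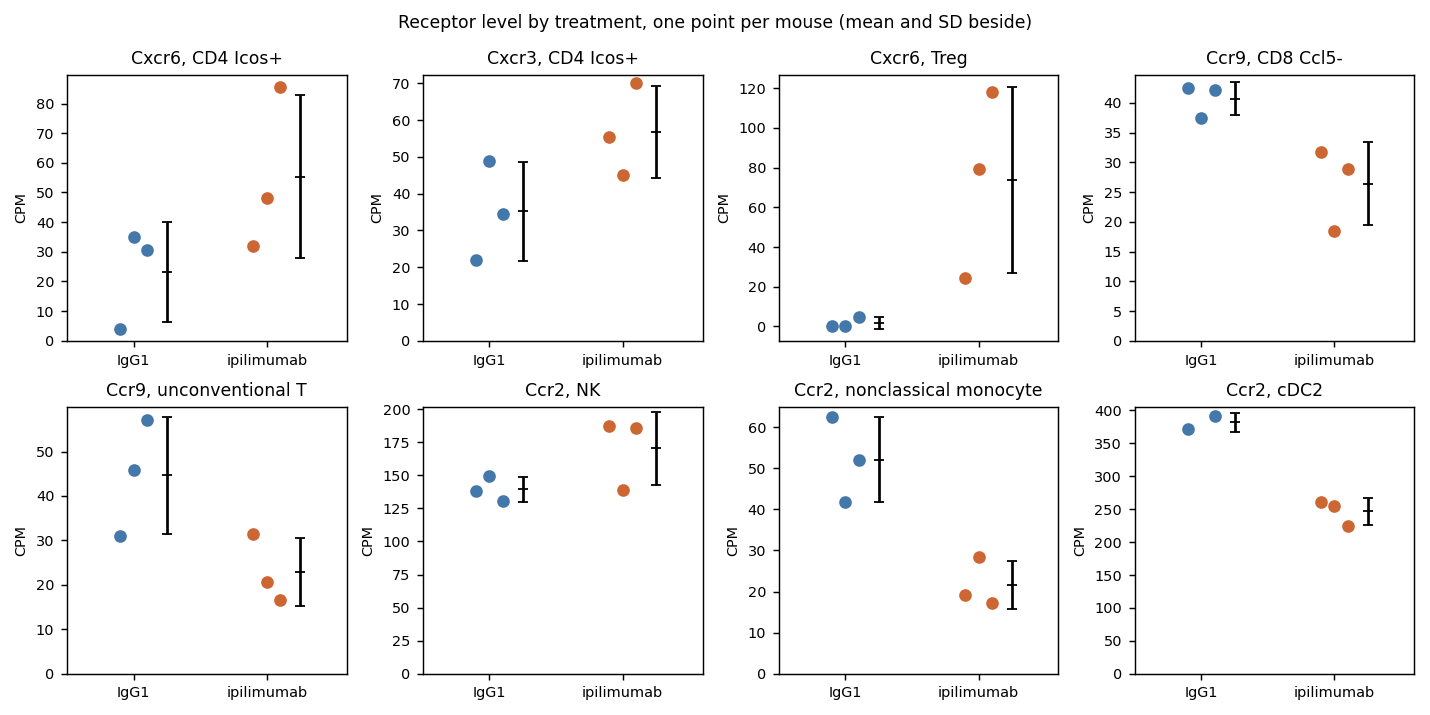
Level (CPM) of a receptor in 8 pairs of receptor and gate, chosen after their values were seen, with a point per mouse and the mean and SD beside each group. The groups are apart for Cxcr6 in Treg, for Ccr9 in CD8 Ccl5- cells and for Ccr2 in nonclassical monocyte-like and cDC2-like cells, the last with 2 IgG1 mice, and none was called with the filter on low counts, which Cxcr6 in Treg did not pass.

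The share of cells with a UMI was compared by the exact two-sided permutation test, whose smallest p with 3 mice a group is 0.1.
Of 136 pairs of receptor and gate, 7 reached it, and the smallest adjusted p was 0.971.
Cells with a Ccr2 UMI made 20.01 ± 4.35% of nonclassical monocyte-like cells with IgG1 and 10.5 ± 0.906% with ipilimumab (SD, n = 3, exact p = 0.1).
After each cell was thinned to 1000 UMIs these shares were 5.45 ± 3.87% and 1.67 ± 1.59%, and the groups overlapped (SD, n = 3, exact p = 0.3).
Cells with a Cxcr3 UMI made 14.7 ± 3.73% and 24.8 ± 3.46% of CD4 Icos+ cells (SD, n = 3, exact p = 0.1), and after thinning to 1000 UMIs 2.92 ± 0.635% and 6.73 ± 1.58%.
In B-like cells the share with a Cxcr3 UMI was 0.156% to 0.749%.

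**Figure D4:**
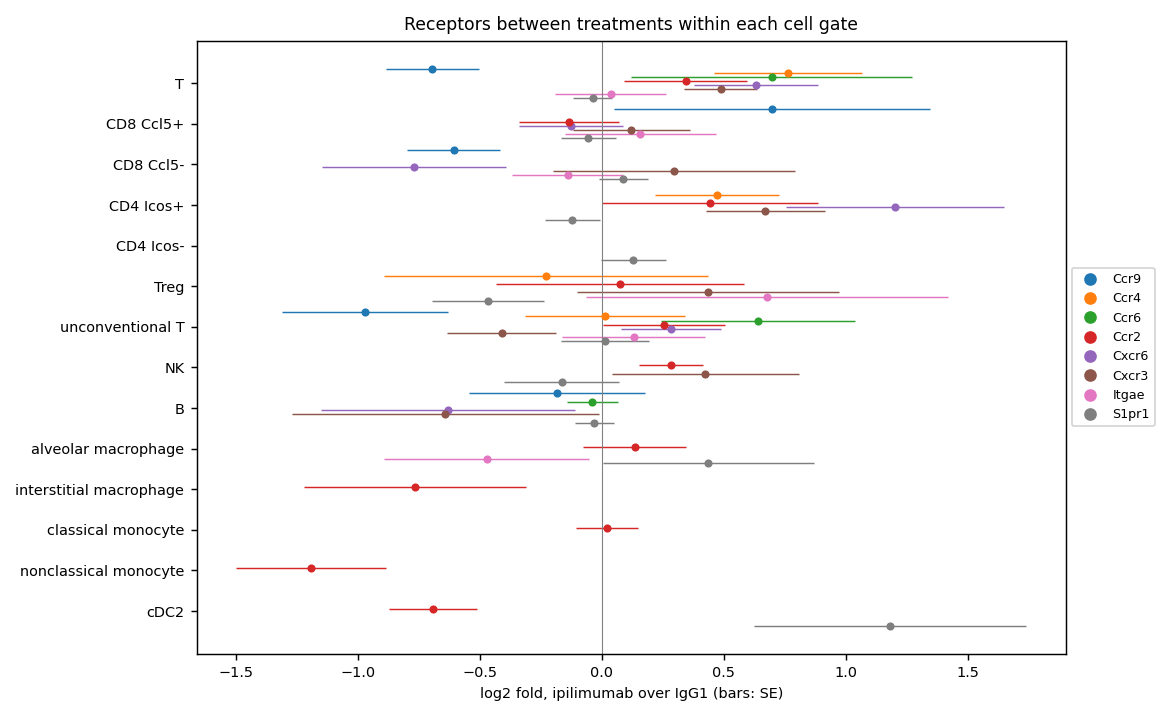
Log2 fold change of each receptor that passed the filter on low counts, ipilimumab over IgG1, in each cell gate, with bars of 1 SE. The folds farthest from 0 are those of Cxcr6 in CD4 Icos+ cells, S1pr1 in cDC2-like cells and Ccr2 in nonclassical monocyte-like cells, and none was called.

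The ligands named with their highest level here were highest outside the T cell gates. Cxcl10 was also found in Treg (75.6 ± 40.7 CPM) and unconventional T cells (58.2 ± 47.6 CPM). Ccl25, the ligand of CCR9, passed the filter on low counts in the comparisons of T cell gates and was not called.
Ccl17 and Ccl22, ligands of CCR4, were highest in mature DC-like cells, at 1098 CPM and 2163 CPM over all mice together (51 cells).
Cxcl16, the ligand of CXCR6, was also highest there (676 CPM), followed by cDC1-like (425 ± 83.2 CPM, 4 mice) and cDC2-like cells (252 ± 34.1 CPM, 5 mice).
Ccl2, a ligand of CCR2, was highest in interstitial macrophage-like cells (356 ± 172 CPM, 5 mice), and Cxcl10 in mural-like cells (1157 ± 650.01 CPM, 4 mice) and fibroblast-like cells (388 ± 261 CPM).
Cdh1, which encodes the E-cadherin bound by CD103, was highest in ciliated-like cells (615 CPM) and AT2-like cells (245 CPM).
Ccl20, the ligand of CCR6, had 1 UMI in ciliated-like and 2 in alveolar macrophage-like cells.
Spns2, which exports sphingosine 1-phosphate, was highest in endothelial-like cells (89.4 ± 9.15 CPM), and Plpp3, which degrades it, in fibroblast-like cells (1225 ± 197 CPM).
No gene of the 5 pathway lists was called between treatments in any gate.
Over all T-like cells the median log2 folds of ipilimumab over IgG1 were -0.046 for the chemokine receptors, 0.15 for the integrins and selectins and 0.030 for the egress and retention genes, against -0.000 for all genes tested.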

How the data were processed

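Droplet libraries (10x Genomics 3' chemistry) of the right lungs of 6 mice were used. The deposited matrices hold raw UMI counts per gene and barcode that the authors made with Cell Ranger (version 7.0.0 and build mm10 in the submitters' processing notes), with empty droplets kept. Cells were called by a UMI threshold and by a test of each barcode's profile against ambient RNA (FDR 0.01), and kept with at least 200 genes and at most 10% mitochondrial UMIs. Doublets were removed by simulated doublets, at 0.8% per 1000 cells. Clusters (Leiden, resolution 0.8, 10 principal components, receptors left out) were named from markers, and T-like cells were divided at 1 UMI of the gating genes. UMIs were summed per mouse and gate, and mice with fewer than 10 cells of a gate were left out. edgeR's quasi-likelihood test (TMM, filterByExpr) ran over all genes with Benjamini-Hochberg adjustment, with the mouse as a block between gates, and calls needed adjusted p below 0.05 with a log2 fold beyond 0.3. Shares were compared by the exact permutation test. The fits were tested on simulated data with an assumed spread between mice. Changes were put only into genes above a floor of expected UMIs, so recovery for receptors with fewer UMIs was not measured. Of changes of 1 on the log2 scale, the treatment test recovered 43% in CD4 Icos+ cells, 52% in NK-like cells and 50.5% in Treg. The test between the CD8 gates recovered 85%, and the interaction test (CD8 Ccl5+ over CD4 Icos+) 9%. Of changes of 2 on the log2 scale, the treatment test recovered 99% to 100% and the interaction test 82%. Software was Python 3.11.15, numpy 2.4.6, scipy 1.17.1, scikit-learn 1.9.0, leidenalg 0.10.2, R 4.3.3, edgeR 4.0.16 and DESeq2 1.42.0. Each receptor's treatment fold is given in the tested gate where its mean was highest. Those at an unadjusted p under 0.05 were added after their values were seen. Between gates, list genes are named as up to 2 called per list and direction, those with the largest folds. Alternatives were another cell calling, mitochondrial limit, doublet setting, resolution, gating, normalization, filter, tool, thinning, a replicate block and each mouse left out. The receptors, lists and gates were chosen with earlier results of these data known. Some genes of the gates and lists are not reported here. Intervals and limits cover counting error only.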

Additional observations from a re-analysis of the deposited data

How the results depend on the processing

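The 21 calls between T cell gates numbered 19 with DESeq2 and 21 to 23 when each mouse was left out, and every named fold between gates kept its direction. Ccr2 and Cxcr6 between the CD4 gates lost their calls with DESeq2, and Ccr2 also when T cells were taken by Cd3 UMIs alone (log2 fold 0.70). Between treatments the 0 calls became 9 without the filter on low counts and 0 to 1 when each mouse was left out (1 without IgG1 replicate 2), and the interaction gave 2 without that filter (Ccr9 and Cxcr6 in CD8 Ccl5+ over CD4 Icos+ cells) and 0 with each mouse left out. The cause was not tested. The replicate numbers were tried as a replicate block, which gave 0 calls. The deviations of same-numbered mice correlated at -0.268 to 0.211, so the numbers do not pair the mice, and under the replicate block the Ccr4 log2 fold in Treg was 0.00139. Folds near 0 changed sign. Ccr2 in classical monocyte-like cells was -0.00545 with cells called by UMI threshold alone, -0.067 with a mitochondrial limit of 20%, -0.12 at resolution 1.6 and -0.032 to 0.14 with each mouse left out. Ccr6 in B-like cells was 0.00945 by UMI threshold alone and -0.095 to 0.072 with each mouse left out, and Ccr4 in Treg was -0.81 to 0.52. Differences in share (percentage points, ipilimumab minus IgG1) also changed sign: with each mouse left out they were -1.41 to 2.38 for Ccr2 in classical monocyte-like cells, -10.4 to 14.6 for Ccr4 in Treg and -1.64 to 18.8 for Itgae in Treg. Thinned to 1000 UMIs they were -1.82 for Ccr4 in Treg, 0.262 for Cxcr3 in unconventional T cells and 5.51 for S1pr1 in CD4 Icos- cells. By UMI threshold alone they were -11.1 for Ccr4 in Treg and 0.419 for Ccr6 in B-like cells, and with T cells by Cd3 UMIs alone -1.64 for Ccr4 in Treg. Treg held 16 to 38 cells a mouse, which limits every Treg value.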
